A study of Mus musculus with 12 samples.

Results

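The genes described here encode cyclic nucleotide phosphodiesterases of the mouse prefrontal cortex (PFC). The 9 members, Pde1a, Pde1b, Pde2a, Pde4a, Pde4b, Pde4d, Pde7b, Pde8b and Pde10a, were chosen by name, with earlier results of these data known. All 9 were found among the 40438 gene names shared by the 3 expression tables, and 15 other phosphodiesterase genes were read beside them. The mice were 10-week-old males labelled C57BL/6 (C57BL/6 J in the study's methods), with no engineered allele in any group. They received an intraperitoneal injection of cocaine (20 mg/kg) or saline on each of 14 days, and the PFC was taken 2 h, 24 h or 7 d after the final injection. Each of the 6 groups held 2 poly(A) RNA libraries (12 in all), with tissue from 5 mice combined in every library (60 mice in all). Cocaine was given by the experimenter and not self-administered, and the dissected block held neurons, glia and vessels together. The tables give 1 FPKM (fragments mapped per length of transcript, scaled to the total mapped) for each group, already pooled over its libraries. No replicate spread could therefore be computed, and every difference below is a description without a test. The tables hold no read counts, so the depth behind each value is unknown from them. The study gives read totals for its libraries, which were not used here. Of 10 listed markers of cortical excitatory neurons, 9 had a mean of at least 1 FPKM at 2 h. One of them, named after its value was seen, is given for the labelled tissue. At 2 h Slc17a7, a vesicular glutamate transporter of cortex, was at 499 FPKM in saline and 509 FPKM in cocaine. Its level does not tell the PFC from other regions with such neurons.

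Cyclic AMP and cyclic GMP carry signals from dopamine, glutamate and nitric oxide inside neurons, and phosphodiesterases end these signals by hydrolysing the ring. The families differ in what they cut and in what switches them on. Pde1 enzymes are activated by calcium and calmodulin, Pde2a is activated by cyclic GMP, and both cut both nucleotides. Pde4, Pde7 and Pde8 enzymes are specific for cyclic AMP, with Pde4 the target of rolipram. Pde10a cuts both nucleotides and is known for its high level in the medium spiny neurons of the striatum.

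All 9 members lie on assembled chromosomes of the GRCm38 build, and the position of each overlaps its RefSeq gene. Pde10a, the member that differed most, spans chr17:8525372-8986648. Pde1a spans chr2:79834452-80129458, Pde8b spans chr13:94976337-95250336, and Pde4d spans chr13:108449948-109956085. These spans are the transcribed loci of the expression tables, with exons, introns and UTRs together. Around the RefSeq gene starts (GRCm38.p6, 250 bases before to 50 after), the 9 members had 28 windows. The core letters of the cyclic AMP response element (CRE) half-site, TGACG on either strand, stood in 5 of the 28 windows (17.9%), against 20.8% of 32851 windows over all genes. The full palindromic CRE, which contains the half-site on both strands, stood in 0 of 28 windows (1.79% of all windows), and so did the AP-1 site (5.20%) and the CArG box of serum response factor (1.63%). An EGR site stood in 1 window, that of Pde2a (3.47% of all windows). The half-sites are shown because CRE-binding factors are the classical readers of the cyclic AMP that these enzymes remove. Each is printed 5′ to 3′ on the strand of the gene, with the half-site in capitals (CGTCA is TGACG read on the opposite strand).
Pde1a, chr2:80039047-80039086, minus strand: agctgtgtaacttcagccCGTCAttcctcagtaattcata
Pde2a, chr7:101450516-101450555, plus strand: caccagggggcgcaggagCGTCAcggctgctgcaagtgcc
Pde4a, chr9:21184033-21184072, plus strand: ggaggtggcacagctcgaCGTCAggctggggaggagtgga
Pde4b, chr4:102421503-102421542, plus strand: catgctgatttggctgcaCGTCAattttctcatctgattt
Pde8b, chr13:95223001-95223030, minus strand: cgggagggaaagttggggTGACGcgcgctg
Pde10a had 2 windows, and neither held any of these motifs. The first, at chr17:8801495-8801794 on the plus strand, was rich in G and C (71.3% of bases, against a median of 52.7% over all windows). It is shown whole because Pde10a was the member that differed most after cocaine.
Pde10a: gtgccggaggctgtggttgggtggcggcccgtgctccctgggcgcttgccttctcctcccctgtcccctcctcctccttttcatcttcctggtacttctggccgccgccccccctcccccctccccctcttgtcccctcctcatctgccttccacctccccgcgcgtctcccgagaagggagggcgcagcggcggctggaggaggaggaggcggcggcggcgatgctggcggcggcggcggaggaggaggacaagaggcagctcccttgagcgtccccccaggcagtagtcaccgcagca
A match of letters is not a bound site, and a missing match says only that these letters are not in these windows.

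The 9 members differed far more from each other than any of them differed between saline and cocaine. Pde2a was the most abundant, with a median of 93.0 FPKM over the 6 groups and a range of 89.4 to 94.7. Pde1b (median 37.1 FPKM), Pde1a (34.8 FPKM) and Pde4b (29.5 FPKM) came next. The ranges of Pde1b and Pde1a overlapped, and so did those of Pde1a and Pde4b, so the order of these neighbours was not separated. Pde8b (median 19.6 FPKM), Pde4d (16.8 FPKM) and Pde4a (14.2 FPKM) formed a lower tier, in which each again overlapped the next. Pde7b (median 8.39 FPKM) and Pde10a (3.98 FPKM) stood at the bottom, with ranges that overlapped no neighbour. For Pde7b this holds for the locus used. At 7 d Pde7b is listed on 2 loci. Their sum in cocaine, 13.2 FPKM, lies above the lowest Pde4a value, 13.1 FPKM. The 3 time points come from tables normalized separately, and FPKM is a level per transcript length, so these are levels per length set across tables.

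**Figure D1:**
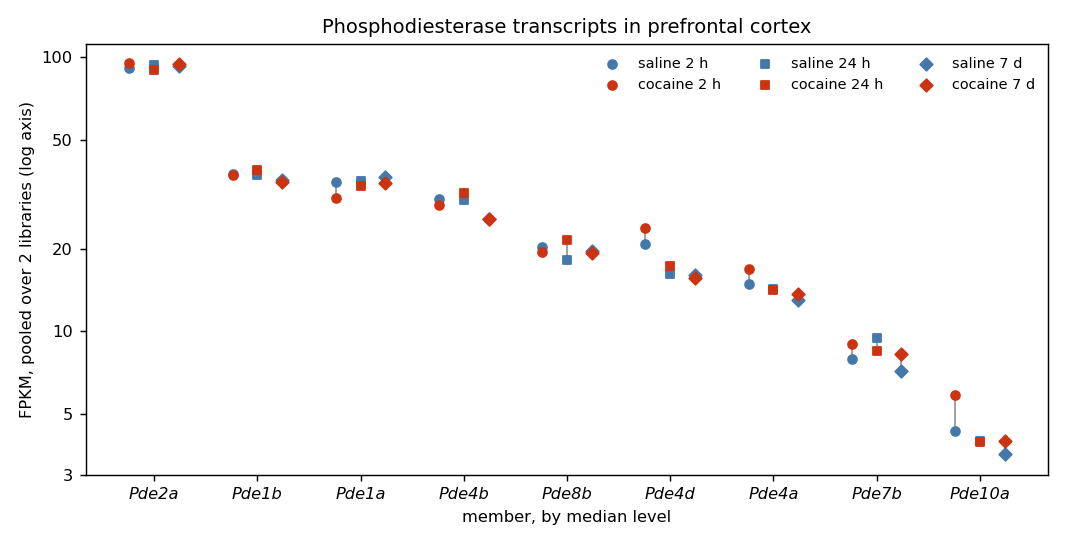
Level of the 9 members in FPKM (log axis), ordered by median level. Each symbol is the deposited value of 1 group pooled over 2 libraries (blue saline, red cocaine; circles 2 h, squares 24 h, diamonds 7 d), and a grey line joins the groups of a time point. Pde2a sits between 89.4 and 94.7 FPKM in all 6 groups, and the widest gap between saline and cocaine is that of Pde10a at 2 h.

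The 9 members made up 94.1 to 94.9% of the summed FPKM of the phosphodiesterase genes with catalytic products, a sum of 264.7 to 281.1 FPKM. Pde2a alone gave 32.7 to 35.4% of that sum. Genes whose enzymes cut both nucleotides gave 60.9 to 64.6%, genes for cyclic AMP-specific enzymes 33.1 to 37.2%, and genes for cyclic GMP-specific enzymes 1.89 to 2.29%. These shares count transcripts, not enzyme activity.

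The cocaine response was measured as the log2 ratio of (cocaine FPKM + 1) to (saline FPKM + 1), and a gene was counted as higher or lower when it passed 1.2-fold (0.263 on the log2 scale). At 2 h, 1 of 9 members passed, Pde10a in the higher direction, where 12.2% of 13355 gene rows did (7.51% higher and 4.73% lower). At 24 h, 0 of 9 passed, where 7.43% of 13554 rows did (3.99% higher and 3.44% lower). At 7 d, 0 of 9 passed, where 13.9% of 13425 rows did (4.86% higher and 9.01% lower). With 9 members, these counts are near the background and are not a result about the family. The median member ratio, in time order, was 0.05, -0.00 and -0.00 on the log2 scale, beside 0.02, 0.01 and -0.01 over all genes. Of the 27 member ratios, 13 lay above 0 and 14 below, and 20 were under 1.1-fold, with a median size of 1.05-fold.

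**Figure D2:**
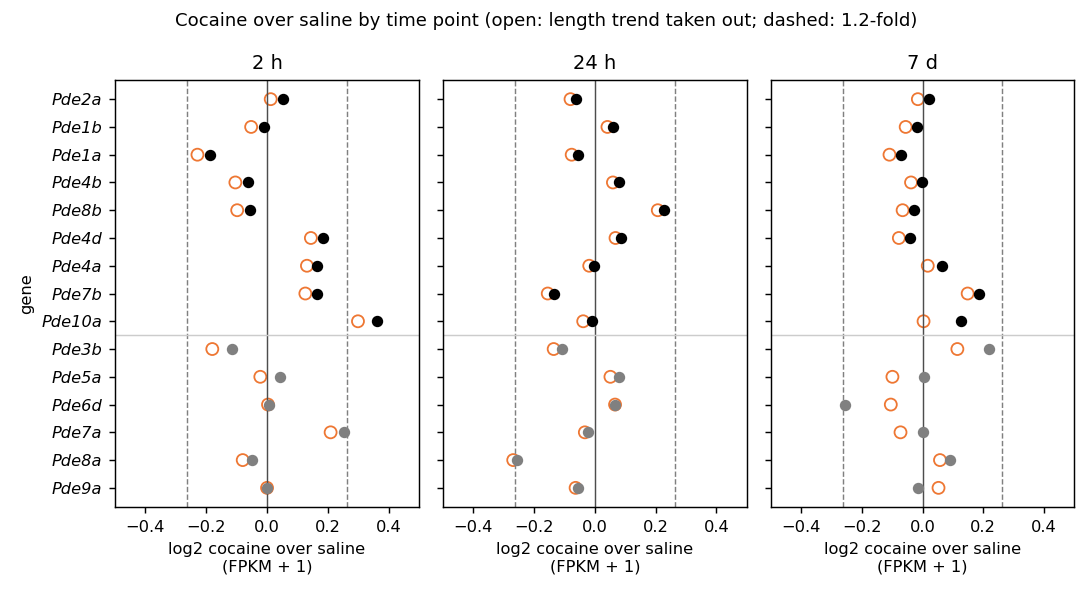
Log2 ratio of cocaine to saline (FPKM + 1) at 2 h, 24 h and 7 d for the 9 members (black, upper block) and the 6 other phosphodiesterase genes with a mean of at least 1 FPKM (grey, lower block). Open orange circles are the same ratios less the length trend, and dashed lines mark 1.2-fold. Only Pde10a at 2 h lies past the line among the filled member points.

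Pde10a, the striatal dual-specificity enzyme, was higher at 2 h after the last cocaine injection and close to saline afterwards. Its saline levels were 4.34, 3.97 and 3.58 FPKM at 2 h, 24 h and 7 d. Its cocaine levels were 5.86, 3.94 and 3.99 FPKM at the same times. The cocaine group at 2 h was the highest of the 6, and the other cocaine values lay inside the saline range. At 2 h the cocaine value was 1.35 times the saline value, or 1.29-fold with the pseudocount (0.36 on the log2 scale), and 6.21% of all gene rows had a ratio at least as large in size. With the length trend taken out the log2 ratio was 0.30. At 24 h the log2 ratio was -0.01 and at 7 d it was 0.13, which became 0.00 without the length trend. From 2 h to 24 h the Pde10a level differed by -0.47 on the log2 scale within the cocaine groups and by -0.10 within the saline groups, across tables normalized separately.

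**Figure D3:**
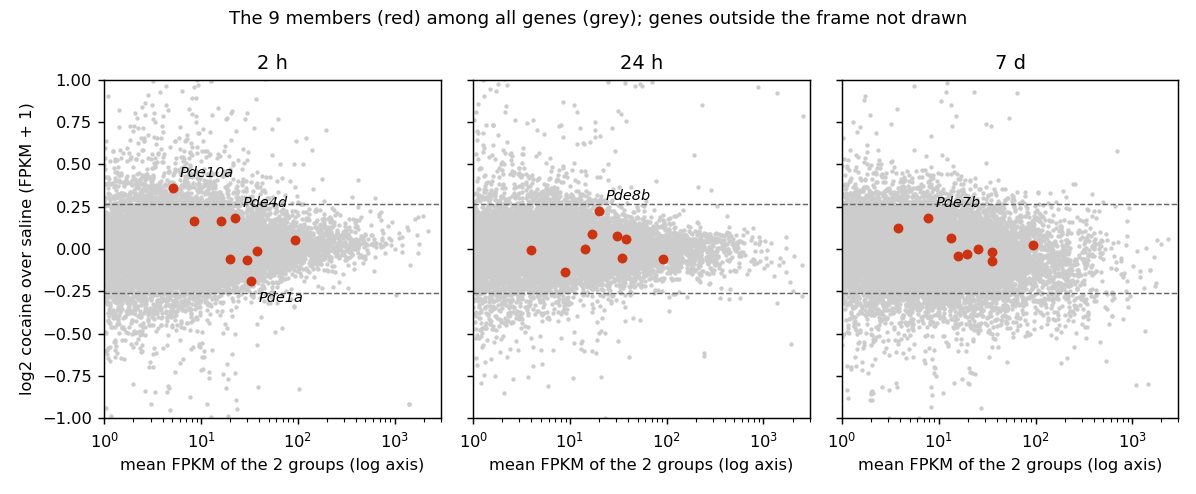
Log2 ratio of cocaine to saline (FPKM + 1) against the mean FPKM of both groups (log axis) at each time point, with all gene rows in grey and the 9 members in red. Dashed lines mark 1.2-fold, members with a size above 0.18 are named, and genes outside the frame are not drawn. Members lie inside the grey cloud, and Pde10a at 2 h is past the upper line.

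Because Pde10a is a striatal gene, markers of striatal neurons were read beside it, and none of the 15 was at 0 in both groups of a time point. Their summed level was 197 FPKM in saline and 207 FPKM in cocaine at 2 h, and 9 passed the level filter. Among these 9 genes, 0 were higher and 1 was lower past 1.2-fold at 2 h (Rgs9, 1.87 against 1.37 FPKM), with a median log2 ratio of 0.12. The defining dopamine receptors were low, with Drd1a at 0.925 FPKM in saline and 0.648 FPKM in cocaine and Drd2 at 0.211 and 0.146 FPKM at 2 h. Hemoglobin and other red blood cell genes also stood higher at 2 h, 5 of 5 past 1.2-fold, with a summed 323 FPKM in saline and 504 FPKM in cocaine. Astrocyte and vascular markers were above 0 in 6 of 6 genes each at 2 h, with 0 past 1.2-fold. At that time 56.6% of all gene rows were above 0 and 7.51% were higher past 1.2-fold. Their summed levels were 415 FPKM in saline and 449 FPKM in cocaine for astrocytes, and 72.6 and 80.6 FPKM for vascular cells. Oligodendrocyte markers at 2 h went the other way, below 0 in 6 of 7 genes, with 0 past 1.2-fold. Their sum was 677 FPKM in saline and 638 FPKM in cocaine. Ttr, the transthyretin gene of the choroid plexus, was at 1.90 FPKM in saline and 0.461 FPKM in cocaine, with the other 5 choroid plexus markers under the level filter. The part of these cells in the Pde10a difference was not tested. In bulk tissue, fewer cells of a type and less RNA per cell cannot be told apart.

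Pde1a and Pde1b, the calcium-activated enzymes, are described in turn, and a difference between their responses was not tested. Pde1a was at 34.9, 35.2 and 36.5 FPKM in saline at 2 h, 24 h and 7 d. After cocaine it was at 30.5, 33.8 and 34.6 FPKM. Every cocaine value lay below every saline value, and Pde1a was the only member with such a separation, which 7.88% of 13010 genes showed (4.49% in the lower direction and 3.39% in the higher). The log2 ratios were -0.19, -0.06 and -0.07, none past 1.2-fold, and 22.7% of gene rows had a size at least as large at 2 h. The separation was lost under median centring. That step centred the ratios on all genes and also aligned the saline groups of the time points by their median difference. The margin of the separation ran only from a highest cocaine value of 34.6 FPKM to a lowest saline value of 34.9 FPKM. Pde1b was at 37.6, 37.0 and 35.5 FPKM in saline and at 37.3, 38.6 and 35.0 FPKM in cocaine. Its groups overlapped, and its log2 ratios stayed between -0.02 and 0.06.

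Pde2a, the cyclic GMP-stimulated enzyme, was the steadiest of the set. Its saline levels were 91.3, 93.3 and 92.7 FPKM and its cocaine levels 94.7, 89.4 and 94.1 FPKM. Its highest group was 1.06 times its lowest. The cocaine value was the higher one at 2 h and 7 d and the lower one at 24 h, with log2 ratios of 0.05, -0.06 and 0.02. The 7 d ratio was -0.02 without the length trend, so its sign is not settled.

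The Pde4 genes, the main rolipram-sensitive cyclic AMP enzymes of cortex, had ratios on both sides of 0. A difference among their responses was not tested. At 2 h Pde4d was 20.9 FPKM in saline and 23.9 FPKM in cocaine, a log2 ratio of 0.19. Pde4a was 14.9 and 16.8 FPKM (0.16). Pde4b was 30.3 and 28.9 FPKM (-0.06), on the other side of 0 from the other Pde4 genes. None of these passed 1.2-fold. At 24 h the saline and cocaine levels were 16.2 and 17.3 FPKM for Pde4d and 30.1 and 31.9 FPKM for Pde4b. Pde4a was at 14.2 FPKM in both. At 7 d each of the Pde4 genes had a log2 ratio between -0.04 and 0.06.

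The larger differences of Pde4d were between time points, in saline as well as in cocaine. In saline, Pde4d differed by -0.35 on the log2 scale between 24 h and 2 h and by -0.36 between 7 d and 2 h. In cocaine the same differences were -0.44 and -0.58. Both groups were therefore highest at 2 h. Pde4b was lowest at 7 d in both groups, at 25.7 FPKM each. Between saline groups, 2 of 9 members passed 1.2-fold in at least 1 of 3 pairs, Pde4d and Pde7b, where 29.4% of 13010 genes did (10.4% between 24 h and 2 h, 19% between 7 d and 24 h, 17.3% between 7 d and 2 h). With a pseudocount of 0.1 the count was 3, with Pde10a added, and the share of all genes was not computed at that setting. The highest Pde10a saline value was 1.21 times its lowest. The tables of these time points were normalized separately, and what else differed between the time points was not tested. For Pde1a, Pde2a, Pde8b and Pde10a the largest cocaine-saline difference exceeded the range of the saline groups on the log2 scale. For the other 5 members it did not. In Pde2a both were small, a difference of 0.06 against a range of 0.03. The share of all genes with such an excess was not computed, so nothing is read from this count.

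Pde7b, a cyclic AMP-specific enzyme, changed sides between time points. It was at 7.91, 9.42 and 7.18 FPKM in saline and at 8.99, 8.49 and 8.30 FPKM in cocaine. The cocaine values all lay inside the saline range. Its log2 ratios were 0.16, -0.14 and 0.19 at 2 h, 24 h and 7 d. The 7 d value is uncertain because the table of that time lists Pde7b on 2 loci of the same span. The locus used was the more abundant one, and the other was at 3.37 FPKM in saline and 4.91 FPKM in cocaine (0.44). With the 2 loci summed, Pde7b was at 10.5 FPKM in saline and 13.2 FPKM in cocaine, a log2 ratio of 0.30 that is past 1.2-fold. At 7 d the 6 vascular marker genes all had ratios above 0, with 3 past 1.2-fold and a summed 74.9 FPKM in saline and 86.3 FPKM in cocaine. Astrocyte markers were above 0 in 5 of 6 genes, with 2 higher past 1.2-fold (Gfap and Gja1). Red blood cell genes were above 0 in 5 of 5, with 2 past 1.2-fold. Among all gene rows at 7 d, 47.7% were above 0 and 4.86% were higher past 1.2-fold. Ttr was at 0.284 FPKM in saline and 6.54 FPKM in cocaine. The part of these cells in the Pde7b difference was not tested.

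Pde8b, a cyclic AMP-specific enzyme known for its very high affinity, had the largest member difference at 24 h. It was at 20.3, 18.2 and 19.7 FPKM in saline. It was at 19.5, 21.5 and 19.3 FPKM in cocaine. The 24 h saline group was the lowest of the 6 and the 24 h cocaine group the highest, and the ranges overlapped. The 24 h log2 ratio was 0.23 (1.17-fold), short of the threshold, and 10.1% of gene rows had a size at least as large. At 2 h and 7 d the log2 ratios were -0.06 and -0.03. At 24 h, ratios were below 0 for 6 of 6 astrocyte markers and 7 of 7 oligodendrocyte markers, with 2 of each lower past 1.2-fold. Over all gene rows at 24 h, 53.1% were above 0 and 3.44% were lower past 1.2-fold. Their summed levels were 467 FPKM in saline and 415 FPKM in cocaine for astrocytes, and 811 and 675 FPKM for oligodendrocytes. Microglia markers at 24 h were below 0 in 6 of 7 genes, with 0 past 1.2-fold. Their sum was 195 FPKM in saline and 180 FPKM in cocaine. The part of these cells in the Pde8b difference was not tested.

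Ratios ran with transcript length, most of all at 7 d. Across genes, which are not independent replicates, Spearman's rho between length and log2 ratio reached 0.483 at 7 d, against 0.156 for the 2 h and 0.0867 for the 24 h comparison. At 7 d the median log2 ratio went from -0.21 in the group of shortest transcripts (median 675 nt) to 0.12 in that of the longest (9129 nt). Pde10a has the longest transcript of the set at 7717 nt, and the other members have 4137 to 4653 nt. The small positive 7 d value of Pde10a was the same as the trend for its length, while the 2 h value stayed past 1.2-fold without the trend.

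**Figure D4:**
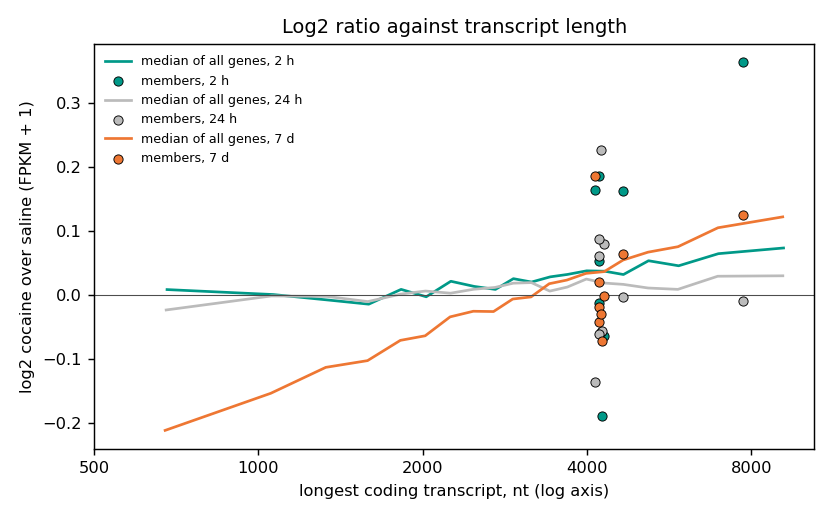
Log2 ratio of cocaine to saline (FPKM + 1) against the longest coding transcript in nt (log axis). Lines join the medians of 20 groups of genes ordered by length, and circles are the 9 members, colored by time point. The 7 d line climbs from -0.21 to 0.12, and Pde10a is the member at 7717 nt.

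Of the 15 other phosphodiesterase genes, 6 had a mean of at least 1 FPKM, and 0 passed 1.2-fold at 2 h, 24 h or 7 d. Pde7a, the relative of Pde7b, came closest at 2 h, with 2.96 FPKM in saline and 3.73 FPKM in cocaine (log2 ratio 0.25). Pde8a, the relative of Pde8b, was at 3.13 FPKM in saline and 2.46 FPKM in cocaine at 24 h (-0.25), on the other side of 0 from Pde8b. Pde6d, a prenyl-binding protein without catalytic activity, was at 35.5 and 29.6 FPKM at 7 d (-0.26), which became -0.10 without the length trend. Pde3b, the cyclic GMP-inhibited enzyme, was at 1.69 and 2.13 FPKM at 7 d (0.22). Pde9a and Pde5a, the cyclic GMP-specific enzymes, had log2 ratios between -0.06 and 0.08 at all times. Pde1c, Pde3a, Pde4c and Pde11a were below 1 FPKM in all groups, as were the Pde6 genes of photoreceptors.

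Genes that make, read and answer cyclic nucleotides were counted from fixed lists. Over all lists, 13 genes were higher and 1 lower past 1.2-fold of 69 at 2 h, 9 and 2 of 68 at 24 h, and 11 and 0 of 68 at 7 d. The background over all gene rows was 12.2, 7.43 and 13.9% in the same order. Most of these were activity-induced early genes, such as Fos, Arc and Nr4a1, with 11 of 12 higher at 2 h, 9 of 12 at 24 h and 6 of 10 at 7 d. In this list 1 gene was lower at 24 h, Nr4a2, an orphan nuclear receptor, at 2.56 FPKM in saline and 1.49 FPKM in cocaine (log2 ratio -0.51). The study's own 24 h values for Nr4a2, by sequencing of the same libraries and by PCR, lie above saline, with neither marked as significant. The direction of Nr4a2 at 24 h is therefore not settled. Several genes of this list were picked out by the study on these samples, so its direction is not independent evidence. The median of the early genes was 1.36 on the log2 scale at 2 h, against 0.05 for the phosphodiesterases.

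Outside the early genes, the 2 h comparison held 3 pathway genes past 1.2-fold, the 24 h comparison 1 and the 7 d comparison 5. Nothing is read from counts this small beside that background. Among adenylyl cyclases, which make cyclic AMP, 1 of 7 was higher at 2 h (Adcy9, 9.17 FPKM in saline and 12.3 FPKM in cocaine, log2 ratio 0.39), 0 of 7 passed at 24 h, and 1 of 8 was higher at 7 d (Adcy1, 50.7 and 63.4 FPKM, 0.32). Of 9 genes for protein kinase A subunits and inhibitors, 0 passed at any time, and their medians lay between -0.03 and 0.03. No gene of the calmodulin list, which holds the activator of Pde1 enzymes, passed at any time. Rapgef4, the cyclic AMP-activated exchange factor Epac2, was lower at 24 h, at 176 FPKM in saline and 144 FPKM in cocaine (-0.29). Rapgef3, which encodes Epac1, was higher at 2 h, at 6.22 and 7.79 FPKM (0.28, or 0.25 and under the threshold without the length trend). Gucy2g, a receptor guanylyl cyclase, was lower at 2 h, at 2.64 and 1.98 FPKM (-0.29). At 7 d, 3 of 8 genes for CREB and its coactivators were higher (Crtc1, Crtc3 and Ep300, log2 ratios 0.27 to 0.28), and so was 1 of 14 anchoring proteins, Akap9 (0.29). Without the length trend, Adcy1 (0.19), Akap9 (0.16), Crtc1 (0.19), Crtc3 (0.22) and Ep300 (0.15) were all under the threshold at 7 d. The 6 genes then left past 1.2-fold were all early genes.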

How the data were processed

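Poly(A) RNA of the PFC was sequenced in 12 libraries, 2 per group. Per the labels' processing notes, the authors used CASAVA 1.8.2, Trimmomatic 0.32, TopHat2 2.0.12, Cufflinks 2.2.1 and Cuffdiff on GRCm38, while the study's methods name cutadapt and mm9. Positions of all 9 members overlapped their RefSeq genes in GRCm38.p6. The values deposited by the authors are FPKM, 1 per group and time point, normalized within each time point and pooled over libraries. The tables also hold the authors' own fold changes, test statistics, p-values, q-values and calls, which were not used. The kit does not mark strand, so overlapping antisense transcripts cannot be told apart.

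Log2 ratios of cocaine to saline were computed with a pseudocount of 1 FPKM, which understates the change of low genes, over rows with a mean of at least 1 FPKM. A ratio past 1.2-fold was counted. Where a gene had several loci, the one with the longest span was used, and among loci of equal span the most abundant. The length trend was the median ratio in 20 groups by longest coding transcript (GENCODE), available for 85.3, 84.5 and 84.7% of rows at 2 h, 24 h and 7 d. The rule for named genes took all members, the measured other phosphodiesterases, genes of each pathway list past 1.2-fold (at most 4 per list and time), markers past 1.2-fold beside a result, and the 3 genes nearest to each of the 3 members with the largest ratios. Slc17a7, Drd1a and Drd2 were named after their values were seen. The members and lists were chosen with earlier results of these data known. Promoter windows came from RefSeq and were searched on both strands. Python 3.11.15, pandas 2.3.3, numpy 2.4.6 and scipy 1.17.1 were used, and the ratio and call steps were tested on simulated data.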

Additional observations from a re-analysis of the deposited data

How the results depend on the processing

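With 1 pooled value per group and no read counts in the tables, no test, interval or fit without a library could be made. No paired analysis was possible because the deposited columns are pooled over both libraries of a group, and leaving out each replicate was not run for the same reason. Of 188 member ratios recomputed under the alternatives, 180 moved by less than the spread of the saline groups and 8 moved by more, 6 of them without the length trend. A change of sign was seen in 2 of the 188, both under 1.1-fold: Pde2a at 7 d (0.02, and -0.02 without the length trend) and Pde4b at 7 d (-0.00, and 0.01 with median centring). No ratio past 1.2-fold changed sign. At 2 h the count of members past the threshold was 5 at 1.1-fold and 0 at 1.5-fold, against 1 at 1.2-fold. At 24 h it was 1 at 1.1-fold (Pde8b), against 0. At 7 d it was 1 at 1.1-fold, 1 with loci summed and 1 with the other Pde7b locus, against 0, each time from Pde7b, the last alternative having been chosen after seeing the data. The separation of Pde1a between saline and cocaine was lost with median centring, which here also aligned the saline groups, and 0 members were left. Of the other phosphodiesterases, 1 passed at 2 h (Pde7a) and 1 at 24 h (Pde8a) with a pseudocount of 0.1, with none and at 1.1-fold, and Pde8a also without the length trend. At 7 d, 1 passed with a pseudocount of 0.1, 2 without one and 2 at 1.1-fold. The pathway count at 2 h was 14, and became 9 at a mean of at least 5 FPKM and 31 at 1.1-fold. At 24 h it was 11, and became 20 at 1.1-fold and 6 at 1.5-fold. At 7 d it was 11, and became 17 without a pseudocount, 28 at 1.1-fold, 4 at 1.5-fold and 6 without the length trend. Other than the changes that the fold or filter makes by construction, the cause was not tested.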

Other observations

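The genes whose cocaine responses lay closest to those of Pde10a, Pde8b and Pde1a were not other phosphodiesterases. Likeness was the Euclidean distance between log2 ratios at the 3 time points, over 13592 genes, and is a description without a test. So few members stand among these genes that their absence from the nearest 3 was likely in advance. Nothing about likeness within the family is read from it. Closest to Pde10a were Frmd4a (distance 0.0299), Perp and Kin, while the nearest member, Pde4a, stood at 0.209 with 782 genes nearer. Closest to Pde8b were Lysmd4 (0.0143), Alg3 and Epha7, and the nearest member was Pde4b at 0.150 with 567 genes nearer. Closest to Pde1a were Pex10 (0.0148), Ptpn5 and Hdac3, and the nearest member was again Pde4b, at 0.198 with 2622 genes nearer.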
